A study of Mus musculus with 6 samples.

Results

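Circulating microRNAs (miRNAs) were followed over days 3, 7 and 14 in mice that received a sciatic nerve allograft and no immunosuppressant. The 3 libraries of these animals, 1 for each day, are 3 of the 6 libraries in the study. An entry, meaning a mature miRNA in the count table, was compared when it held at least 50 reads in any of the 3 libraries, which 133 of 1281 entries did. Day 7 was set against day 3, and day 14 against day 7 and day 3, so that a passing day 7 peak could be separated from what was still different at day 14.

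The untreated animals were male mice of 10 to 12 weeks given a 1-cm segment of Balb/c sciatic nerve in a 0.5-cm gap, under ketamine and xylazine anesthesia. The FK506 animals had the same graft, surgery and anesthesia and received FK506 (tacrolimus, which blocks T cell activation through calcineurin) at 1 mg/kg per day. The labels give C57BL/6 as the strain of the sampled mice, while the design text names Balb/c as recipient in one place. The study set 3 animals per group and day, but the labels do not say if a library holds 1 animal or several. No ungrafted or pre-surgery library was analysed here, so every change is relative to another day after surgery. With 1 library per day no spread between animals could be estimated, and no p-value is given.

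miRNAs are short RNAs that guide Argonaute proteins to messenger RNAs, mainly through the seed, bases 2 to 8 from the 5′ end. Extracellular miRNAs in blood come from blood cells, endothelium, liver and other tissues, and they travel in vesicles or bound to protein. Some are largely restricted to 1 tissue, such as miR-124 in neurons, miR-219 and miR-338 in myelinating glia and miR-122 in hepatocytes, and red cells are rich in miR-486 and miR-451a. In serum, more cells of a type releasing RNA and more RNA released per cell cannot be told apart.

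The mature sequences of 107 of the 133 entries were found in RefSeq (mouse build GRCm38.p6), and those that carry the time course are shown with the seed in capitals. The first set holds miRNAs of neurons, glia and the Dlk1-Dio3 locus that appeared almost only at day 7:
miR-9-5p: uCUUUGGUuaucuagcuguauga
miR-129-2-3p: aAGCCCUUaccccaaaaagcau
miR-338-3p: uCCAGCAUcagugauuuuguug
miR-204-5p: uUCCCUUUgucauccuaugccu
miR-381-3p: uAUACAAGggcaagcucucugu
miR-410-3p: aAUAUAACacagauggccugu
The sequences of miR-124-3p and miR-219-2-3p are not shown.

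The second set holds seed families whose members moved apart at day 7. The let-7 seed was shared by entries that stayed near their day 3 level and by the most changed member, let-7e-5p:
let-7e-5p: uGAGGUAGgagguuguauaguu
let-7a-5p: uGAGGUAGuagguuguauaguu
let-7i-5p: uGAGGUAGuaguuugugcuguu
The miR-25 and miR-92 seed had 1 member higher, 1 member within 2-fold and 1 member lower:
miR-92b-3p: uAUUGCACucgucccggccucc
miR-92a-3p: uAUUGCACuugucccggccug
miR-25-3p: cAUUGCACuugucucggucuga
The miR-125 seed had both miR-125 members higher and miR-351-5p lower:
miR-125b-5p: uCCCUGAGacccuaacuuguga
miR-351-5p: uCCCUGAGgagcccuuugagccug
The miR-10 and miR-100 groups have related but different seeds, and they moved in opposite directions:
miR-100-5p: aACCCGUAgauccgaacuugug
miR-10b-5p: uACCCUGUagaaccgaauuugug
The miR-181 seed carried most of the added reads of day 7:
miR-181a-5p: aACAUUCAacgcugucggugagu
miR-181d-5p: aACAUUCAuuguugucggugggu

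The third set holds miRNAs that differed between day 14 and day 3. miR-107-3p and miR-192-5p were higher at day 14, while miR-146a-5p and miR-10a-5p were lower:
miR-107-3p: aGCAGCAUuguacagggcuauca
miR-192-5p: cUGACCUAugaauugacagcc
miR-146a-5p: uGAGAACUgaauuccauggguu
miR-10a-5p: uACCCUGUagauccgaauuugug

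The library totals were 5137675 reads at day 3, 4897727 at day 7 and 5357177 at day 14. The pair miR-486-5p and miR-3107-5p, whose counts nearly coincide, filled 96.9%, 93.9% and 97.0% of them, and 160163, 298117 and 158423 reads were left for all other entries. At least 50 reads were held by 94, 121 and 95 entries. The day 7 library stands apart from the others: over the 133 entries, the correlation of log2 levels was 0.98 between days 3 and 14, against 0.72 between days 3 and 7 and 0.68 between days 7 and 14. Among the entries with 50 reads at day 3 or 14 the same values were 0.97, 0.86 and 0.84. The neuron and glia miRNA lists described here held 3.31% and 0.961% of its reads outside the miR-486-5p pair, against 0.0606% and 0.0287% at day 3. The labels call it serum like the others. Whether all its RNA came from serum of the labelled animals was not tested, and its origin should be treated as uncertain. Every day 7 value rests on this 1 library, and how far it stands for other animals was not tested either.

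Levels were compared as log2 ratios of counts scaled to effective library size (TMM over the 6 libraries) after a prior count of 2, and an entry was called higher or lower at a change of at least 2-fold. Fold changes in brackets are plain ratios of scaled counts with an exact 95% binomial interval, which covers counting error only. It treats each read as an independent count, which could not be checked because the reads carry no molecular identifiers. Where 1 library had no read, the fold is a bound computed against 3 reads in that library.

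At day 7, 61 of 133 entries (45.9%) were higher than at day 3 and 22 (16.5%) were lower, with a median log2 ratio of 0.65. The floor favours entries that are high at day 7: 31 reached 50 reads only there, and all of these but miR-671-3p were called higher. Among the 102 entries with 50 reads at day 3 or 14, 31 (30.4%) were higher and 22 (21.6%) lower, with a median of -0.04. This second floor leans the other way, towards entries low at day 7: it kept all 22 lower entries but 31 of the 61 higher ones. The split depended on scaling: with the day totals taken without the miR-486-5p pair, 46 of the 133 were higher and 52 lower, and the median fell by 0.93. All 22 lower entries and 46 of the 61 higher ones kept their call under the 4 other scalings tried. Nearest the threshold on the higher side were miR-26b-5p at 1.03 and miR-421-3p at 0.99, and miR-146a-5p, at -0.99, fell just short of a lower call.

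**Figure D1:**
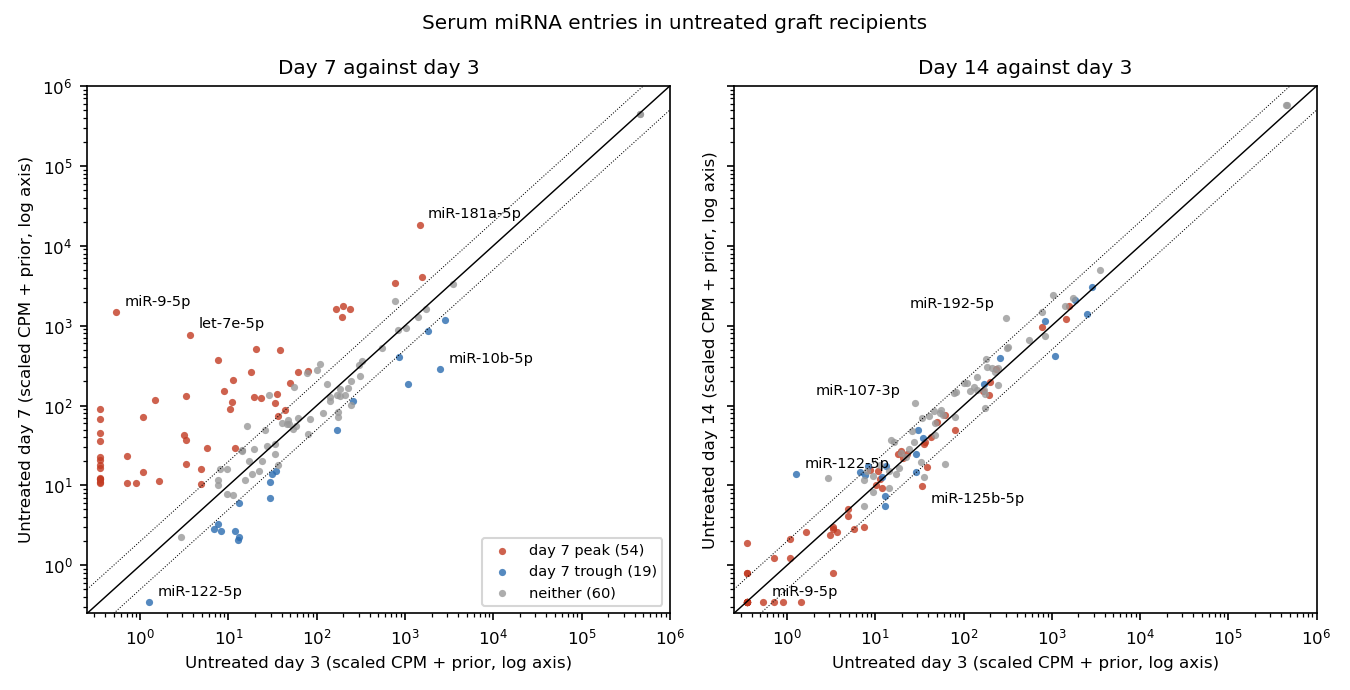
Scaled CPM plus the prior count (log axes) of the 133 entries at day 7 (left) and day 14 (right) against day 3, 1 point per entry, with the line of equality and dotted lines at 2-fold. The 54 entries that peaked at day 7 lie above the band on the left and mostly within it on the right; the correlation of log2 levels is 0.72 on the left and 0.98 on the right.

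A peak was counted where day 7 was at least 2-fold above both day 3 and day 14, and 54 entries (40.6%) showed one. Of these, 24 had 50 reads at day 3 or 14 and 30 reached that level only at day 7. Their summed reads were 28023, 200830 and 23211 at days 3, 7 and 14, which is 17.5%, 67.4% and 14.7% of the reads outside the miR-486-5p pair. A trough, with day 7 at least 2-fold below both other days, was shown by 19 entries (14.3%), whose share of those reads was 33.0%, 5.41% and 25.1%. Both comparisons with day 7 share its library, so each peak or trough is 1 departure of that library seen from both sides.

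All 8 measured members of the neuron list were higher at day 7, against 45.9% of all entries, with a median log2 ratio of 5.96 (5.28 with members at 0 set to their bound) against 0.65. Only miR-128-3p of them had 50 reads at another day. The other 7 were measured through day 7 alone, so the count and median describe how they were chosen and add no support. miR-9-5p, a regulator of neural progenitors and neurons, had 1 read at day 3, 7683 at day 7 and 0 at day 14. Its day 7 level was 8089 times that of day 3, with a counting interval of 1451 to 319540, and its day 14 level was at least 2203-fold lower than day 7.

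miR-124-3p, the most abundant neuronal miRNA of the brain, had 0, 182 and 0 reads at days 3, 7 and 14, at least 63.9-fold higher at day 7 than at day 3. miR-129-2-3p, made from a brain-enriched precursor, had 0, 234 and 0 reads, at least 82.1-fold higher at day 7. miR-128-3p, which is enriched in neurons but also made elsewhere, had 96, 1348 and 109 reads (14.8-fold, 12.0 to 18.4). Except for miR-128-3p, these neuronal miRNAs were not detected, or nearly so, at days 3 and 14 at this depth. miR-132-3p, which is induced by neuronal activity, had 0, 60 and 7 reads. Of the 16 neuron list members in the table, 4 had no read on any of the 3 days: miR-137-3p, miR-346-5p, miR-383-5p and miR-488-3p.

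Of the oligodendrocyte and Schwann cell list 4 members were measured, all through day 7 alone, so that being higher there followed from the floor. Their median log2 ratio was 6.62 (6.29 at the bounds), and 45.9% of all entries were higher. miR-219-2-3p, the 3p arm of a miR-219 precursor, had 0, 467 and 0 reads, at least 164-fold higher at day 7 than at day 3. Under the floor were miR-219-5p, with 0, 5 and 0 reads, and miR-219-1-3p, with 5, 10 and 8. miR-338-3p, which acts with miR-219 in myelinating glia, had 0, 347 and 0 reads, at least 122-fold higher. miR-138-5p, which has been tied to both oligodendrocytes and Schwann cells, had 2, 54 and 0 reads. miR-204-5p, best known from the retinal pigment epithelium and choroid plexus, was already present at day 3, with 39, 1939 and 12 reads (52.4-fold, 38.2 to 73.8). The 2 libraries around day 7 thus held little of any of them. Whether these reads came from central or peripheral glia was not tested.

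The Dlk1-Dio3 locus on chromosome 12 carries a large cluster of imprinted miRNAs that are expressed from the maternal chromosome in embryo and brain. Of the 10 measured entries of its list 9 were higher and 1 lower at day 7, against 45.9% and 16.5% of all entries, with a median log2 ratio of 5.10 (4.73 at the bounds). Only 3 of the 10 had 50 reads at another day, and of these 2 were higher and 1 lower. miR-431-3p and miR-654-3p lie in the same region but outside the list, and had log2 ratios of 3.56 and 5.55. Both reached the floor only at day 7, so their higher calls followed from it and add no support. miR-127-3p, which is antisense to the retrotransposon-derived gene Rtl1, had 206, 2567 and 74 reads (13.1-fold, 11.4 to 15.2). miR-381-3p had 6, 611 and 0 reads (107-fold, 49.0 to 293). miR-411-5p had 16, 674 and 2 reads (44.3-fold, 27.1 to 78.0).

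The exception of this locus, miR-541-5p, had 68, 9 and 23 reads and was 7.18-fold lower at day 7 (3.57 to 16.4), although it lies in the same stretch as miR-410-3p (chr12:109742422-109743784, plus strand). miR-410-3p itself had 4, 370 and 8 reads (97.4-fold, 37.7 to 359). Of the 49 list members in the table, 20 had no read on any of the 3 days. Under the floor, miR-434-3p had 45, 34 and 20 reads and miR-540-3p had 14, 2 and 1. Others there were seen mainly at day 7, such as miR-136-5p with 1, 32 and 0 reads. Not every member of the locus moved the same way.

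**Figure D2:**
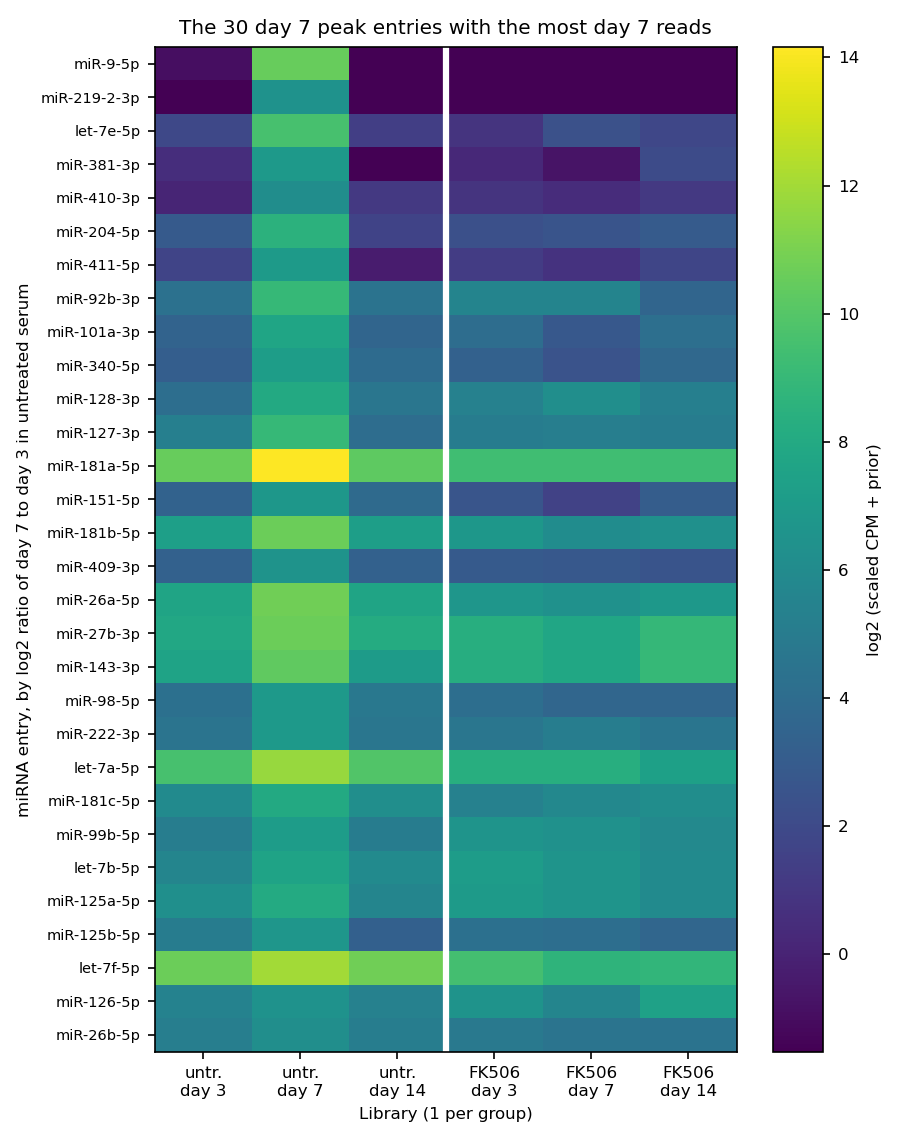
Log2 scaled CPM (plus the prior count) of the 30 peak entries with the most untreated day 7 reads. Columns are days 3, 7 and 14, first in the untreated and then in the FK506 libraries, 1 library per column. By the definition of a peak, the untreated day 7 column is the highest of the untreated columns in every row. miR-9-5p stands at 0 reads in all 3 FK506 libraries.

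The neuron, glia and Dlk1-Dio3 lists accounted for 21 of the 54 peak entries but for 17610 of their 200830 reads at day 7. The other 33 peak entries, of which 12 reached the floor only at day 7, summed to 27597, 183220 and 22949 reads at days 3, 7 and 14. By reads, the largest of the peak entries was miR-181a-5p, a regulator of T cell receptor sensitivity that is abundant in thymus and brain. It had 7981, 94740 and 5458 reads, or 4.98%, 31.8% and 3.45% of the reads outside the miR-486-5p pair, and was 12.5-fold higher at day 7 (12.2 to 12.8).

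Of the 7 measured miR-181 entries 5 were higher and 0 lower, with a median of 2.80, against 45.9% of all entries higher. Among the 5 with 50 reads at another day 3 were higher, with a median of 2.07. Over all entries with that floor 30.4% were higher, with a median of -0.04. miR-181b-5p had 892, 8327 and 680 reads (9.83-fold, 9.17 to 10.5). miR-181c-5p had 336, 1344 and 336 reads, a smaller 4.21-fold difference. miR-181d-5p, encoded beside miR-181c (chr8:84178759-84178945, minus strand), had 260, 301 and 187 reads, within 2-fold at all 3 days. Entries that share a seed share part of their targets, yet they differ in sequence beyond it, and here the a and b members set the level of the family.

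In the let-7 family, which restrains proliferation and is high in differentiated tissue, 5 of 9 measured members were higher and 0 lower, with a median of 1.38. That share is close to the 45.9% of all entries. With 50 reads at another day it was 4 of 8, with a median of 0.95, against 30.4% and -0.04 over all entries with that floor. Without the miR-486-5p pair in the totals, the 9 members had 3 higher and 2 lower, with a median of 0.41. let-7e-5p stood apart, with 18, 3993 and 10 reads (234-fold, 148 to 394). let-7a-5p, one of the most abundant members, had 4227, 17735 and 4242 reads (4.42-fold, 4.27 to 4.57). let-7i-5p, at 9349, 8290 and 9935 reads, was within 2-fold. let-7e-5p is made from 1 transcript with miR-99b-5p and miR-125a-5p (chr17:17830194-17830840, plus strand), and these had log2 ratios of 2.00 and 1.74 against 7.72 for let-7e-5p.

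Many seed families spread out at day 7, although opposite calls within a family were rare. Of 16 families with at least 2 measured members, 11 spanned over 2-fold and 2 had a higher and a lower member. In 4 families every member was higher, and in the miR-10 family both members were lower. In others, such as that of miR-146a-5p and miR-146b-5p, no member was called. In the family of miR-25 and miR-92, miR-92b-3p, which is expressed in neural progenitors, had 109, 2651 and 97 reads (25.6-fold higher, 21.1 to 31.3). miR-92a-3p, an abundant blood cell and endothelial miRNA, had 19175, 17035 and 22068 reads, within 2-fold. miR-25-3p, its relative from the miR-106b cluster, had 15427, 6038 and 13644 reads (2.43-fold lower, 2.36 to 2.50).

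The miR-125 family was split in the same way, with log2 ratios of 1.74 for miR-125a-5p, 1.66 for miR-125b-5p and -2.08 for miR-351-5p. The miR-10 members, which lie in the Hox clusters and are known from endothelium and smooth muscle, were both lower, while the related miR-99a-5p, miR-99b-5p and miR-100-5p were all higher, at 1.71 to 3.79. Without the miR-486-5p pair in the totals, miR-99a-5p, miR-125a-5p and miR-125b-5p lost their peak call. miR-101a-3p, an inhibitor of the histone methyltransferase Ezh2, had 59, 1089 and 52 reads (19.4-fold, 14.9 to 25.7), while miR-101b-3p, a close copy, had 70, 29 and 77. Differences between members of 1 family within the same libraries do not move with the scaling, apart from the prior count. They do depend on how reads that match near-identical members were assigned, which no source used here gives.

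**Figure D3:**
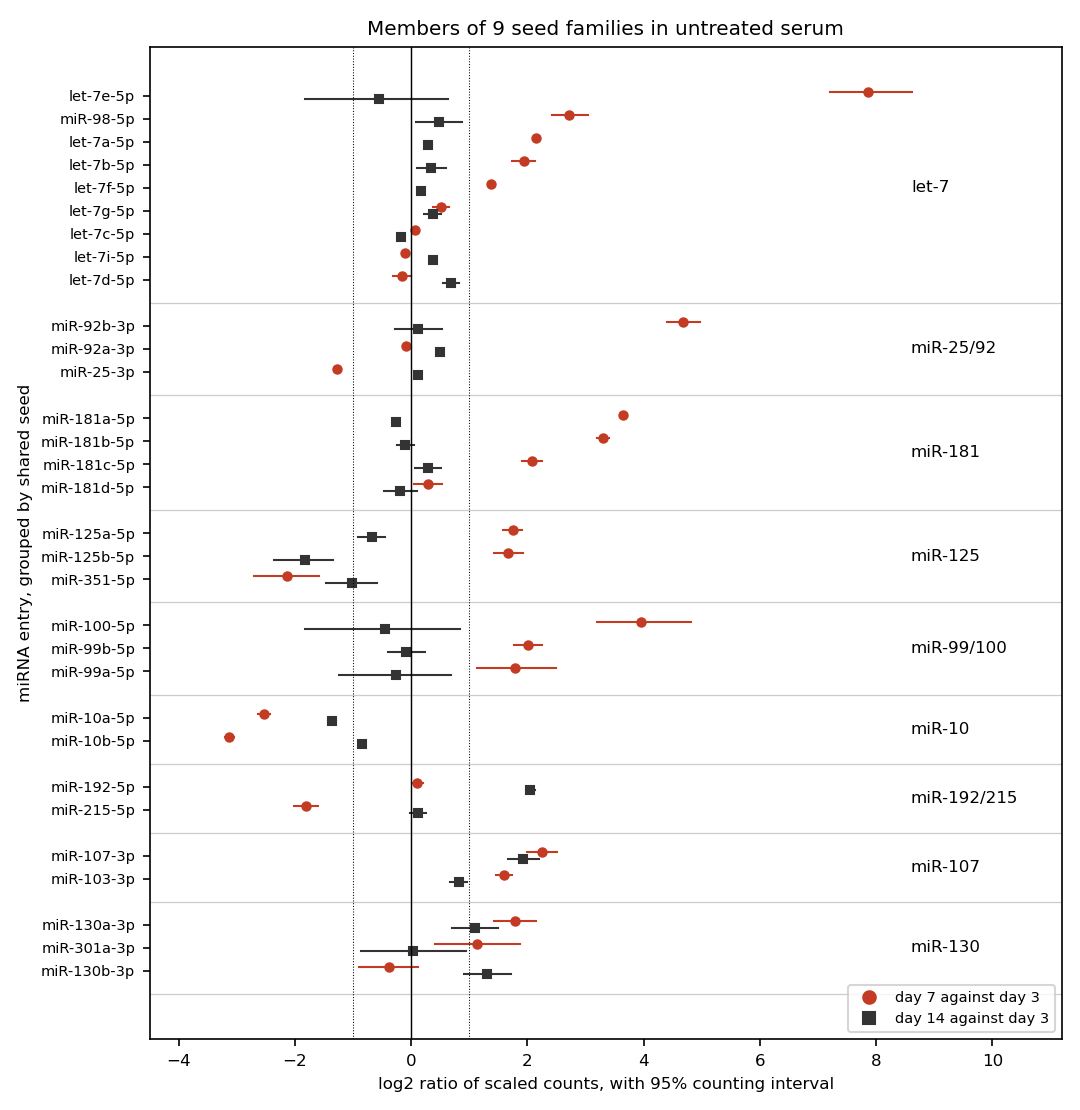
Log2 ratio of scaled counts of day 7 (circles) and day 14 (squares) against day 3, with 95% counting intervals, for the members of 9 seed families, 1 row per entry, with dotted lines at 2-fold. Circles spread widely within the let-7, miR-25 and miR-92, and miR-125 families, while most squares lie within 2-fold of day 3.

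Of the 54 peak entries 16 were in none of the 16 lists. Among the peak entries outside the neural lists and the miR-181 and let-7 families, those with the most day 7 reads were miR-26a-5p, a regulator of the cell cycle, with 1076, 8982 and 867 reads (8.79-fold, 8.25 to 9.37), and miR-27b-3p, an angiogenesis and lipid metabolism regulator, with 1284, 8323 and 1263 reads (6.83-fold, 6.43 to 7.24). miR-143-3p, known from smooth muscle, had 1047, 6608 and 597 reads (6.65-fold, 6.23 to 7.10). Each of these stood highest at day 7 while its other 2 days lay within 2-fold of each other. The partner that miR-143 is transcribed with, miR-145a-5p, had 17, 20 and 9 reads and was under the 50-read floor.

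The 2 arms of 1 hairpin mostly shared their call: of 18 pairs measured, 15 did, 3 did not and 0 moved in opposite directions past 2-fold. Shared calls include pairs with neither arm called, such as miR-486. In 7 of the 18 pairs the ratios of the arms lay over 2-fold apart. The pairs overlap, since miR-129-5p and miR-181a-5p each enter more than once. miR-486 and miR-3107 enter as separate pairs, although the counts of their 5p arms nearly coincide. In every pair with both arms higher except miR-423, at least 1 arm reached the read floor only at day 7. The higher call of such an arm largely followed from the floor, so these agreements add little support. miR-151-5p had 57, 576 and 65 reads with a log2 ratio of 3.37, whereas miR-151-3p had 998, 676 and 1334 reads with one of -0.49, the widest gap at 3.86. For miR-181a, the 3p arm of the first hairpin rose with the 5p arm, at 3.47 against 3.64, and that of the second, at 0.22, was within 2-fold. As the arms come from the same libraries, this gap too is independent of scaling.

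The lowest ratio of day 7 to day 3 was that of miR-10b-5p, which had 13506, 1463 and 6153 reads (8.77-fold lower at day 7 than at day 3, 8.31 to 9.26). miR-10a-5p had 5870, 961 and 1866 reads (5.80-fold lower, 5.42 to 6.22). Of the 4 measured entries of the vascular and mesenchymal list, 2 were higher (miR-143-3p and miR-126-5p) and these 2 were lower. The list thus had no common direction, where 45.9% of all entries were higher and 16.5% lower. miR-126-5p, at a log2 ratio of 1.04, fell to 0.07 without the miR-486-5p pair in the totals.

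Of the 8 measured erythroid entries 0 were higher and 5 lower at day 7, with a median of -1.09, and all 8 passed the floor at another day. Over the entries with that floor 21.6% were lower. Within 2-fold were miR-486-5p and miR-3107-5p, whose counts nearly coincide, both at a log2 ratio of -0.04, and miR-92a-3p at -0.10. Without the miR-486-5p pair in the totals all 8 were lower, the pair itself only just, at -1.01, as were 52 of the 133 entries. miR-16-5p, which is abundant in red cells, had 4598, 2098 and 5121 reads (2.08-fold lower, 1.98 to 2.19). miR-451a, which drives red cell maturation and is cut by Ago2 rather than Dicer, had 1326, 523 and 796 reads (2.41-fold lower, 2.18 to 2.67). miR-451a reads per miR-23a-3p read, an index often used for hemolysis, numbered 21.0, 43.6 and 14.5 at days 3, 7 and 14 (intervals 16.3 to 27.6, 24.7 to 84.9 and 11.0 to 19.4). It was highest at day 7 although miR-451a itself was lowest, since miR-23a-3p had 63, 12 and 55 reads. The part of red cell release in the day 7 levels was not tested.

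Among white cell miRNAs, miR-191-5p had 9978, 4383 and 9325 reads (2.16-fold lower, 2.09 to 2.24) and miR-150-5p, of mature lymphocytes, had 948, 426 and 622 (2.11-fold lower, 1.88 to 2.38). miR-142-5p, of blood cells in general, was within 2-fold at 642, 417 and 670 reads, and miR-342-3p was 2.51-fold higher. Without the miR-486-5p pair miR-342-3p lost its call, at a log2 ratio of 0.35, and miR-142-5p was lower, at -1.51. miR-155-5p, which is induced in activated T and B cells, had 8, 5 and 4 reads, and miR-223-3p of granulocytes had 10, 9 and 6, so neither was compared. Of the muscle list only miR-133a-3p was measured, at 945, 370 and 418 reads (2.43-fold lower at day 7, 2.15 to 2.74), and the muscle miRNAs miR-1a-3p and miR-206-3p had no read on any of the 3 days. The miR-30 family, with 6 measured entries, had 0 higher and 0 lower at a median of -0.07, but without the miR-486-5p pair 4 were lower.

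**Figure D4:**
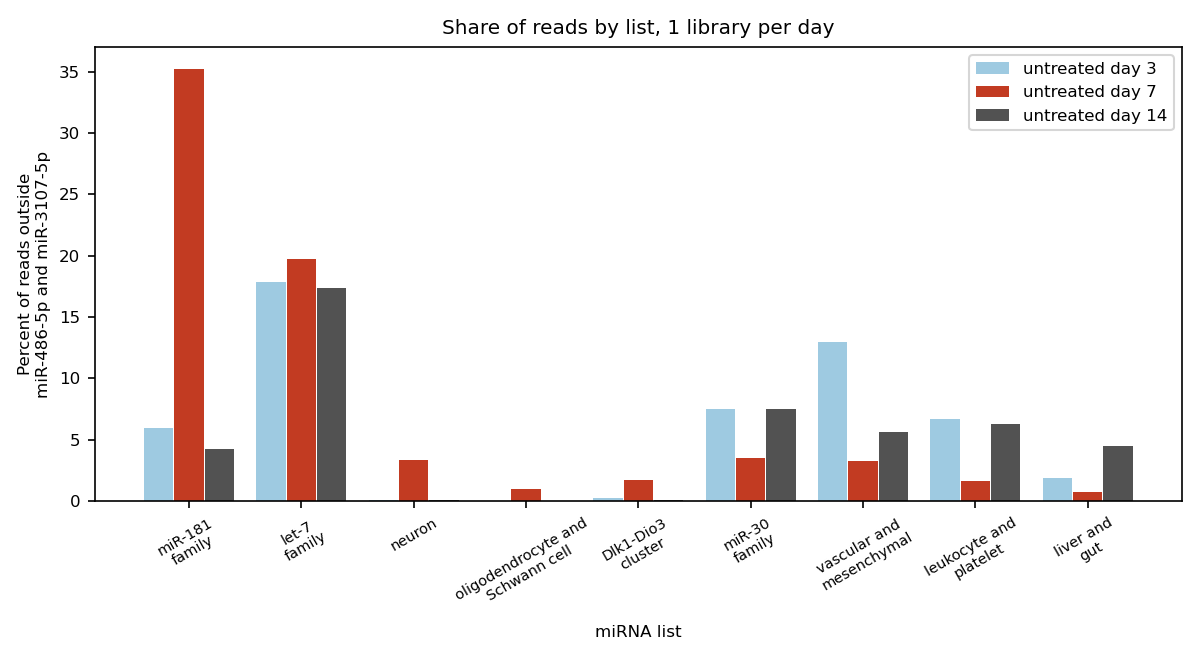
Share of the reads outside miR-486-5p and miR-3107-5p, in percent, held by each of the named lists at days 3, 7 and 14 in the untreated libraries, 1 library per bar. The miR-181 family holds 5.98%, 35.2% and 4.26%, while the vascular and mesenchymal list holds 13.0%, 3.23% and 5.61%.

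By day 14 most levels lay nearer to day 3 again. At day 14, 57 of 133 entries (42.9%) were lower than at day 7 and 30 (22.6%) higher, with a median of -0.51. Among the 102 entries with 50 reads at day 3 or 14, a floor that leans towards entries low at day 7, 26 (25.5%) were lower and 30 (29.4%) higher. The split again moved with scaling, to 64 lower and 20 higher against the library total, and to 49 lower and 52 higher without the miR-486-5p pair, where the median shifted by 0.68. Of the measured entries, 8 of 8 in the neuron list, 4 of 4 in the oligodendrocyte and Schwann cell list and 9 of 10 in the Dlk1-Dio3 list were lower at day 14 than at day 7. For most of these the floor, reached at day 7 alone, fixed that direction.

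Day 14 against day 3 gave far fewer differences. Of the 133 entries 106 were within 2-fold, 14 (10.5%) were higher and 13 (9.77%) lower, and of the 102 entries with 50 reads at one of these days 11 (10.8%) were higher and 7 (6.86%) lower. Under other scalings the higher count was the less firm. Against the library total it was 5 with 18 lower, and with TMM over the 3 untreated libraries 6 with 16 lower. With median-of-ratios size factors it was 8 with 16 lower, and without the miR-486-5p pair 8 with 17 lower. TMM without the day 7 library also gave 8 and 16. By read depth the lower count was the less firm: 6 lower and 3 higher entries had under 50 reads at both days. Where the counting interval also had to leave out a ratio of 1, 12 were higher and 10 lower. Of the 14 higher entries 5 held under the 4 other planned scalings, and of the 13 lower entries 12 did.

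The peak did not leave the levels of all its members where they began. Of the 54 peak entries 43 were within 2-fold of day 3 at day 14, 3 were higher and 8 lower. miR-125b-5p, a miRNA of neurons, glia and many other cells, had 183, 552 and 42 reads and ended 3.56-fold below day 3 (2.53 to 5.11). miR-127-3p ended 2.27-fold below (1.74 to 3.01) and miR-204-5p 2.66-fold below (1.36 to 5.57). The other 5, miR-149-5p, miR-431-3p, miR-138-5p, miR-411-5p and miR-381-3p, had at most 29 reads at day 3. The 3 that ended higher, miR-132-3p, miR-138-1-3p and miR-485-5p, had 0 reads at day 3 and at most 7 at day 14.

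Counting those 3, 5 entries were higher at both day 7 and day 14 than at day 3. The other 2 were well covered. miR-107-3p, a regulator of insulin sensitivity made within the Pank1 gene, had 153, 690 and 475 reads and was 3.80-fold above day 3 at day 14 (3.16 to 4.59). It held under every planned scaling. miR-130a-3p, a miRNA of endothelium and hematopoietic cells, had 87, 284 and 152 reads and was 2.14-fold above day 3 (1.63 to 2.82), a call that was lost under other scalings. miR-103-3p, which has the same seed as miR-107-3p, had 593, 1695 and 853 reads and ended within 2-fold, at 1.76-fold.

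Lower at both days were 3 entries, and all 3 held under the planned scalings. miR-10a-5p was 2.57-fold below day 3 at day 14 (2.44 to 2.71). miR-351-5p, the third carrier of the miR-125 seed, had 157, 34 and 63 reads and was 2.04-fold below (1.51 to 2.77). miR-541-5p was 2.42-fold below (1.49 to 4.06). miR-10b-5p ended 1.79-fold below day 3, within the 2-fold rule, but its log2 ratio of -0.84 became -1.19 by library total and -1.12 without the miR-486-5p pair, past the rule.

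A further 9 entries were higher at day 14 without being higher at day 7, led by miR-122-5p, miR-148a-5p and miR-192-5p. miR-192-5p, of intestine, liver and kidney, had 1627, 1666 and 5509 reads and was 4.14-fold above day 3 (3.92 to 4.38). Its seed partner miR-215-5p had 925, 251 and 818 reads, lower at day 7 and near its day 3 level at day 14. miR-122-5p, the main miRNA of hepatocytes, had 5, 0 and 60 reads and was 14.7-fold above day 3 (5.96 to 46.9). miR-148a-5p had 14, 10 and 53 reads (4.63-fold, 2.53 to 9.04). It passed the floor through day 14 alone, the day at which it was called higher. Of the 4 measured entries of the liver and gut list, 2 were higher and 0 lower at day 14 than at day 3, with a median of 1.45, against 10.5% of all entries higher. Among them miR-122-5p also passed the floor through day 14 alone. At day 7, 0 were higher and 2 lower, against 16.5% of all entries lower, and the lower call of miR-122-5p rests on 0 reads against 5, a bound of only 1.58-fold.

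miR-22-3p, a widely expressed miRNA, had 5601, 4761 and 10667 reads and was 2.33-fold above day 3 at day 14 (2.26 to 2.41). miR-130b-3p had 81, 59 and 164 reads (2.48-fold, 1.89 to 3.27). These and the remaining late entries miR-106b-3p, miR-1198-5p, miR-1843a-5p and miR-1843b-5p lost their call under at least 1 planned scaling, whereas miR-192-5p, miR-122-5p and miR-148a-5p did not. miR-1843a-5p, with 43, 12 and 77 reads, and miR-1843b-5p, with 35, 13 and 63, also passed the floor through day 14 alone.

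Of the 5 measured entries of the inflammation feedback list, 3 were lower and 0 higher at day 14 than at day 3, with a median of -1.50, against 9.77% of all entries lower. miR-146a-5p, which is induced by NF-kappaB and restrains Toll-like receptor signalling, had 194, 92 and 55 reads and was 2.88-fold below day 3 (2.13 to 3.96). miR-146b-5p, with the same seed, had 333, 358 and 81 reads and was 3.36-fold below (2.63 to 4.34). The third was miR-125b-5p. miR-21a-5p, which is raised in many injured tissues, had 1226, 857 and 1164 reads and was within 2-fold between every pair of days as scaled here. At day 7 only miR-125a-5p and miR-125b-5p of this list were called, both higher than at day 3. Without the miR-486-5p pair in the totals both calls were lost, and 2 others, miR-146a-5p and miR-21a-5p, were lower.

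**Figure D5:**
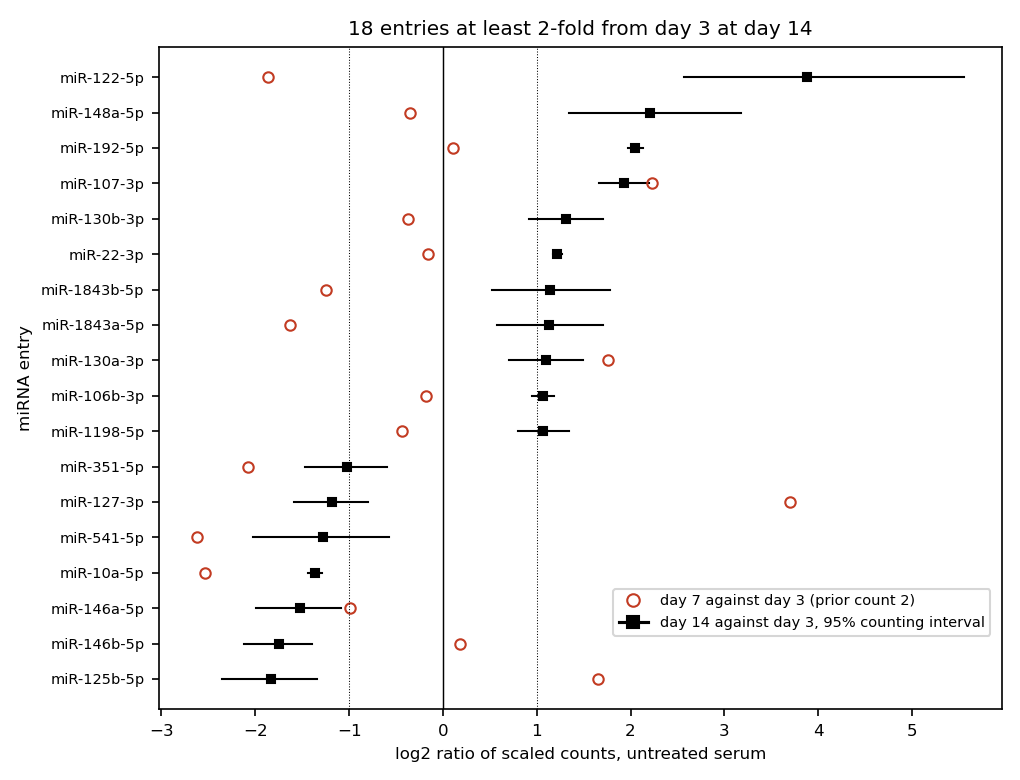
Log2 ratio of day 14 against day 3, with its 95% counting interval, for the entries with 50 reads at day 3 or 14 that were called changed, and the ratio of day 7 against day 3 of the same entries as an open mark. miR-192-5p, 4.14-fold higher, and miR-146b-5p, 3.36-fold lower at day 14, were near their day 3 level at day 7, while miR-125b-5p was above it at day 7 and below it at day 14.

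In the FK506 libraries the 54 peak entries, chosen for being high at untreated day 7, held 11582, 10080 and 37648 reads at days 3, 7 and 14, or 11.1%, 9.78% and 10.5% of the reads outside the miR-486-5p pair. Between days 7 and 3 of the FK506 arm, 2 of the 54 (let-7e-5p and miR-129-2-3p) were higher and 4 lower, with a median log2 ratio of -0.10 and a range of -1.40 to 2.02. Over all 133 entries, 4 (3.01%) were higher and 6 (4.51%) lower in that arm. miR-9-5p, miR-124-3p and miR-219-2-3p had no read in any FK506 library, and 25 of the 54 stayed under 50 reads in all 3, where a change is poorly measured. Whether the arms differ in their time course was not tested, since each day of each arm is 1 library.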

How the data were processed

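Per the labels' protocols, serum RNA was size-selected, ligated to linkers, made into barcoded cDNA and sequenced with 11 libraries pooled in 1 lane; blood was drawn into tubes with anticoagulant, per the design text. The authors deposited unnormalized read counts for each mature miRNA. Linkers were trimmed and reads matched to miRBase 20, per the labels' protocols, and Bowtie is named in the submitters' processing notes. Versions, mismatches and genome build are not given in the labels, nor is how a read with several matches was counted. All count columns given were used.

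Effective library sizes were computed with R 4.3.3 and edgeR 4.0.16 (TMM) from 153 entries kept by filterByExpr with a minimum count of 10. Log2 ratios used a prior count of 2, a floor of 50 reads and a 2-fold rule. With 1 library per group no test was run. Intervals are exact 95% binomial intervals of 2 counts (scipy 1.17.1, Python 3.11.15) and, like the floor of 3 reads for a count of 0, cover counting error only. Depth was 4897727 to 5357177 reads. The calculation was tested on simulated data. DESeq2 1.42.0 served only for alternative size factors. Other alternatives were the library total, the total without miR-486-5p and miR-3107-5p, TMM over the untreated libraries, other floors and prior counts. The settings chosen after seeing the data were a floor in the libraries compared and TMM without day 7. Sequences and positions come from RefSeq (GRCm38.p6), with hairpins linked within 10000 bases. The miRNA lists and the entries named (the 10 highest and lowest ratios past the rule per comparison, all that stay changed, the 10 with the most reads, the top 3 of each list and partner arms) were chosen with earlier results of these data known. Entries named for a family, a cluster or a tissue beyond this were chosen after their values were seen.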

Additional observations from a re-analysis of the deposited data

Results flagged for a closer look

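Some entries with at least 50 reads in a pair of days in both arms moved past 2-fold in opposite directions in untreated and FK506 serum. Each arm has 1 library per day, so the difference was not tested, and every untreated value here involves the day 7 library.

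For day 7 against day 3, miR-101a-3p had a log2 ratio of 4.24 in untreated serum, against -1.26 in FK506 serum, among 86 entries compared.

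For day 14 against day 7, 7 of 102 entries were in this position. miR-101a-3p had -4.13 in untreated serum and 1.41 in FK506 serum. miR-340-5p had -3.27 and 1.25. miR-143-3p had -3.25 and 1.16, and miR-27b-3p had -2.50 and 1.15 in untreated and FK506 serum. The fifth, miR-151-5p, had -2.90 in untreated and 1.55 in FK506 serum, and miR-126-5p had -1.12 and 1.84. Only miR-25-5p of these was higher at day 14 in untreated serum, at 1.27, against -1.13 in FK506 serum. Its FK506 reads went from 43 at day 7 to 61 at day 14, on totals of 5068245 and 5806228. The effective library size was 0.741 times the total of the 153 entries used for scaling at FK506 day 7 and 2.08 times at day 14. The FK506 direction of miR-25-5p thus rests on the scaling, and no FK506 ratio was recomputed under another. By library total its untreated log2 ratio was 0.93, under 2-fold.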

How the results depend on the processing

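No paired analysis was possible because each group holds 1 library, and for the same reason no library could be left out of a group. Across the counts, 80 values recomputed under another setting moved by less than 1.5 times and 28 by more; for the named entries, 814 log2 ratios stayed inside the counting interval of the value reported and 360 left it. No called ratio changed sign under these settings.

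Scaling: without the miR-486-5p pair in the totals, day 7 against day 3 gave 52 lower, day 14 against day 7 gave 52 higher, day 14 against day 3 gave 8 higher, and 49 entries had a trough. Higher entries at day 14 against day 3 numbered 5 by library total, 6 by TMM over the untreated libraries, 8 by median-of-ratios and 8 by TMM without day 7.

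Floor: with 100 reads, 14 entries were lower at day 7 against day 3, 7 higher at day 14 against day 3, 11 had a trough and 4 stayed changed. With 50 reads at day 3 or 14, day 7 against day 3 gave 31 higher, day 14 against day 7 gave 26 lower, day 14 against day 3 gave 7 lower, 24 entries peaked and 5 stayed changed. With 50 reads in 1 of the libraries compared, 7 were lower at day 14 against day 3. With no floor, day 7 against day 3 gave 162 higher and 70 lower, day 14 against day 7 gave 89 higher and 149 lower, day 14 against day 3 gave 72 higher and 59 lower, 132 entries peaked, 40 had a trough, 58 stayed changed and 73 changed at day 14 only.

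Depth limits the entries that are rare outside day 7: 13 of the 54 peak entries had no read at day 3, 14 none at day 14 and 10 none at both. For these the size of the change is a bound. Animal-to-animal variation is unknown.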

Other observations

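The nerve injury list, of miRNAs known to change in injured nerve, had no common direction at day 7. Of its 5 measured entries, miR-222-3p and miR-132-3p were higher and miR-182-5p was lower at day 7 than at day 3. These counts lie near the shares over all entries, 45.9% higher and 16.5% lower. The higher call of miR-132-3p, with 0, 60 and 7 reads, followed from the floor, which it reached only at day 7. miR-222-3p, which promotes Schwann cell proliferation, had 124, 632 and 109 reads at days 3, 7 and 14 (5.37-fold higher at day 7, 4.42 to 6.56). Its neighbor miR-221-3p, encoded within the same stretch (chrX:19146307-19146923, minus strand), had 141, 257 and 211 reads and was within 2-fold.

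Of 5 measured entries of the miR-17 to miR-92 clusters, 1 was higher at day 7 (miR-92b-3p) and 2 were lower (miR-25-3p and miR-93-5p). Over all 133 entries 45.9% were higher and 16.5% lower. The 4 entries of the cluster of miR-25, miR-93 and miR-106b (chr5:138165332-138165767, minus strand) had log2 ratios of -1.28 to -0.18 at day 7 against day 3. Of the epithelium list, 2 entries were measured and 0 were called: miR-375-3p, of pancreatic islets and gut endocrine cells, had 1327, 1055 and 1303 reads, and miR-205-5p, of skin and other epithelia, had 50, 38 and 57. Without the miR-486-5p pair in the totals these 2 were lower at day 7 than at day 3, with a median of -1.23, as were 52 of the 133 entries. Under that scaling they were also higher at day 14 than at day 7.

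The median GC content of the mature sequence was 47.6% for the 45 peak entries with a sequence, 47.6% for the 18 trough entries and 45.5% for the other 44, and the median lengths were 22, 23 and 22 bases.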
